A study of Homo sapiens with 6 samples.

Results

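Complex III, complex IV and the ATP synthase carry out the last steps of oxidative phosphorylation in the inner membrane of the mitochondrion. Complex III passes electrons from ubiquinol to cytochrome c, complex IV passes them from cytochrome c to oxygen, and the ATP synthase makes ATP with the proton gradient that results. Most of their subunits are coded by nuclear genes, made in the cytosol and imported, and they are assembled with a few subunits coded by mitochondrial DNA. The genes described here are 34 nuclear genes of these complexes, chosen by their symbols among the 54261 rows of a count table, 9 of complex III, 10 of complex IV and 15 of the ATP synthase. The table uses the older ATP5 symbols, and all 34 rows were found and passed the filter on low counts.

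The libraries were made from total RNA of PC9/GR, a line that the labels describe as lung cancer cells. PC9 is an established human lung adenocarcinoma line that carries an activating mutation of the epidermal growth factor receptor (EGFR). The knockdown group comprised 3 libraries of cells given si-MYLK-AS1, a small interfering RNA treatment against the long non-coding RNA MYLK-AS1, and the control group comprised 3 libraries of cells given si-NC. The title of the series places the comparison within glutamine metabolism and resistance to EGFR inhibitors. All groups share this 1 line, and the sources used here do not give the siRNA sequences, their dose or the time of harvest. Nothing in the labels ties the repeats to separate cultures, so p-values measure the spread between these libraries, which may be technical.

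Library totals were 11055408, 9530332 and 7551303 reads in knockdown replicates 1 to 3 and 8867818, 10246759 and 10978513 reads in control replicates 1 to 3. MYLK-AS1 had 0, 5 and 4 reads in knockdown replicates 1 to 3, against 20, 16 and 19 reads in control replicates 1 to 3, and fell (log2 fold change -2.43, SE 0.60, adjusted p = 0.00326), or by 1.74 on the log2 scale without knockdown replicate 1 (adjusted p = 0.0159). At that depth, 0 reads leave room for 3 reads, or 0.274 CPM, a limit that covers counting error only. The summed level of 5 epithelial markers, nearly all of it KRT8 and KRT18, ranged from 4951 to 5468 CPM in the knockdown and from 8223 to 9207 CPM in the control. CDH1 was also lower in every knockdown library, at 34.8 to 53.8 CPM against 75.5 to 111 CPM in the control, while KRT19 was higher, at 102 to 113 CPM against 78.2 to 95.5 CPM in the control, and EPCAM had 4 to 16 reads. The lung markers NKX2-1, NAPSA and SFTPB were at or near 0, with a summed level of 1.09 to 3.20 CPM in the knockdown and 1.54 to 2.01 CPM in the control. Of 8 markers of leukocytes, endothelium and fibroblasts, PTPRC, CD3E and COL1A2 had no read in any library, and the summed level of the 8, most of it CD68, was 284.5 to 326 CPM in the knockdown and 189 to 268 CPM in the control. The part of these differences in the results was not tested. A level in CPM is a count scaled to the library total after adjustment with trimmed mean of M values (TMM) factors, and fold changes are knockdown over control.

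The 34 genes were on balance lower in the knockdown, and the change was uneven within each complex. By edgeR's quasi-likelihood test, with an adjusted p of 0.05 over all 15391 tested genes, 14 of the 34 fell, 3 rose and 17 did not pass. Those shares were 41.2% lower and 8.82% higher, where 20.7% of all tested genes were lower and 21.3% were higher. Of the 7316 tested genes that averaged 20 CPM or more, 22.3% were lower and 29.3% were higher. The median log2 fold change of the 34 was -0.16, against 0.00 over all tested genes, and 28 of the 34 values were negative. The summed level of the 34 was 6142, 6096 and 6602 CPM in knockdown replicates 1 to 3, against 7234, 7366 and 8097 CPM in control replicates 1 to 3, and the groups did not overlap. All knockdown libraries lay below all control libraries for 18 of the 34 genes, and above them for 3, against 26.1% and 26.1% of all tested genes. Bulk RNA cannot tell less of a transcript in each cell apart from fewer cells that hold it.

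**Figure D1:**
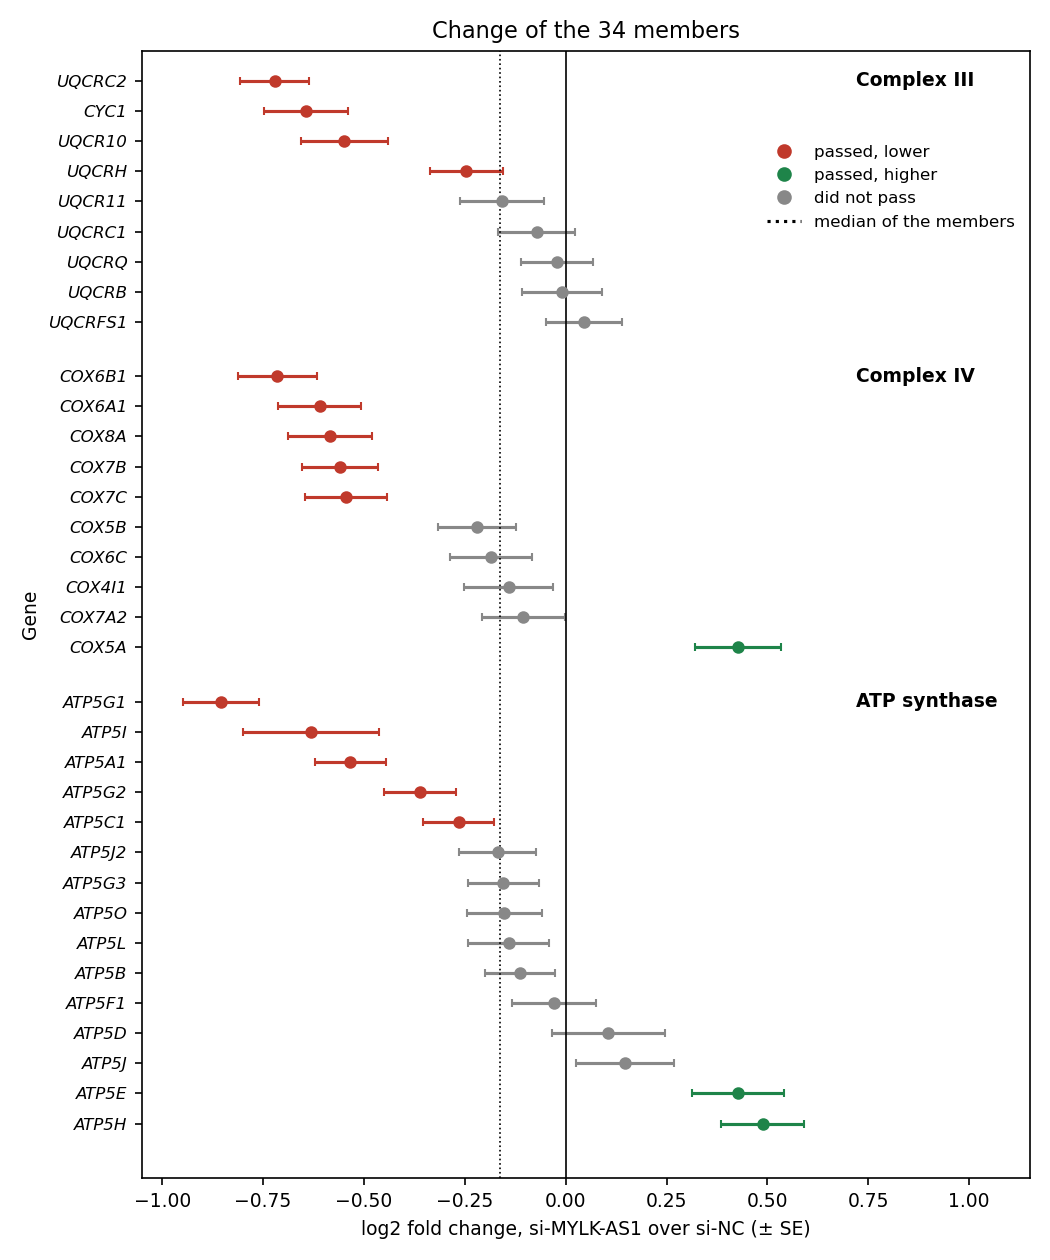
The log2 fold change of each of the 34 genes (x axis, knockdown over control, with its SE) is plotted by complex, coloured by the outcome of the test. In each complex a run of genes lies between -0.25 and -0.85 while others lie near 0, and COX5A, ATP5E and ATP5H lie above 0.

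In complex III, 4 of 9 genes fell (44.4%, against 20.7% of all tested genes) and the other 5 did not pass. The median log2 fold change was -0.16. The fall touched 1 of the 2 large core proteins that face the matrix and 1 of the 2 nuclear-coded redox subunits. UQCRC2, a core protein (chr16:21952660-21983660, plus strand, GRCh38), had 146, 155 and 156 CPM in knockdown replicates 1 to 3, against 251, 249.9 and 253 CPM in control replicates 1 to 3. All 3 knockdown libraries were far below the control libraries, which lay within 3 CPM of each other, and the knockdown level was 60.7% of the control (log2 fold change -0.72, SE 0.09, adjusted p = 3.84e-06). UQCRC1, the other core protein, had 239, 248 and 269 CPM in the knockdown, against 252, 246 and 295 CPM in the control, with overlapping groups (log2 fold change -0.07, SE 0.09, adjusted p = 0.574).

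CYC1, cytochrome c1, which hands electrons on to cytochrome c, had 243, 225 and 199.98 CPM in the knockdown, against 310.4, 337 and 397 CPM in the control. The groups stood apart, and CYC1 fell by 0.64 on the log2 scale (SE 0.10, adjusted p = 9.35e-05). UQCRFS1, the Rieske iron-sulfur protein, did not pass, with 221 ± 18.3 CPM in the knockdown and 214 ± 15.4 CPM in the control (SD, n = 3 each, log2 fold change 0.05). Of the 5 small accessory subunits, UQCR10 and UQCRH fell (40%, against 20.7% of all tested genes). UQCR10 had 64.2, 65.8 and 79.7 CPM in the knockdown, against 99.8, 109 and 96.8 CPM in the control (log2 fold change -0.55, SE 0.11, adjusted p = 0.000515).

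UQCRH, the acidic hinge protein beside cytochrome c1, had 125, 122 and 136 CPM in the knockdown, against 148, 152 and 153 CPM in the control, a smaller change (log2 fold change -0.25, SE 0.09, adjusted p = 0.0350). The near-identical copy UQCRHL, whose reads may be shared with it, had 72.1 CPM in the knockdown and 73.9 CPM in the control on average (log2 fold change -0.04, adjusted p = 0.786). Reads assigned to the copies of UQCRH came to 52.6% of its own reads, and with them added UQCRH no longer passed (log2 fold change -0.18, adjusted p = 0.111). Its call was also lost when knockdown replicate 1 (adjusted p = 0.0950), knockdown replicate 2 (0.147), control replicate 1 (0.0676) or control replicate 2 (0.105) was left out, and with no filter on low counts (0.0697). The other accessory genes UQCRB, UQCRQ and UQCR11 had log2 fold changes from -0.16 to -0.01 and did not pass.

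In complex IV, 5 of 10 genes fell (50%, against 20.7% of all tested genes) and 1 rose (10%, against 21.3%). The median log2 fold change was -0.38. COX4I1 and COX5A, whose proteins join the mitochondrially coded catalytic subunit early in assembly, were not among those that fell. COX4I1 had 465, 411 and 519 CPM in the knockdown, against 452, 492 and 594 CPM in the control, with overlapping groups (log2 fold change -0.14, SE 0.11, adjusted p = 0.320). COX5A (chr15:74919791-74938168, minus strand, GRCh38) had 141, 147 and 183 CPM in the knockdown, against 113, 113 and 124 CPM in the control. Every knockdown library was above every control library, and COX5A rose to 134% of the control (log2 fold change 0.43, SE 0.11, adjusted p = 0.00348).

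The 5 genes that fell are all among the 8 small accessory subunits that surround the catalytic core of complex IV (62.5%, against 20.7% of all tested genes). The difference between early and accessory subunits was not tested. COX6B1, which lies on the side of the intermembrane space where complex IV forms dimers (chr19:35648223-35658861, plus strand, GRCh38), had 372, 345 and 310.3 CPM in the knockdown, against 510.1, 558 and 618 CPM in the control. The groups were well apart, and COX6B1 was at 60.9% of the control (log2 fold change -0.71, SE 0.10, adjusted p = 1.86e-05). COX6A1, another subunit at the dimer contact, had 192, 199 and 205 CPM in the knockdown, against 276, 276 and 356 CPM in the control (log2 fold change -0.61, SE 0.10, adjusted p = 0.000137). COX8A had 177, 173 and 153 CPM in the knockdown, against 232, 232 and 291 CPM in the control (log2 fold change -0.58, SE 0.10, adjusted p = 0.000225). In both, control replicate 3 was the highest library and the groups did not overlap. Another gene annotated on the same strand covers 34.5% of the exon bases of COX8A, and reads of the pair cannot be told apart here.

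COX7B had 122, 118 and 131 CPM in the knockdown, against 171, 179 and 198 CPM in the control (log2 fold change -0.56, SE 0.09, adjusted p = 0.000132). COX7C had 147, 134 and 138 CPM in the knockdown, against 178, 203 and 230.1 CPM in the control (log2 fold change -0.55, SE 0.10, adjusted p = 0.000337). The log2 fold changes of these 5 genes thus lay in a narrow range, from -0.71 to -0.55. The other accessory genes COX5B, COX6C and COX7A2 had log2 fold changes from -0.22 to -0.10 and did not pass. COX5B came close (adjusted p = 0.0749), and its knockdown libraries were all below its control libraries, as were those of COX6C.

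Processed pseudogenes could take reads from this complex. Reads assigned to pseudogenes of COX6A1 came to 53.4% of its own reads, most of them to COX6A1P2, which had 127 CPM in the knockdown and 143 CPM in the control on average and did not pass (log2 fold change -0.17, adjusted p = 0.141). With these rows added, COX6A1 still fell, by 0.45 on the log2 scale (adjusted p = 0.000749). COX7CP1, whose reads came to 12.3% of those of COX7C, fell with its parent gene (log2 fold change -1.13, SE 0.15, adjusted p = 9.77e-06).

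**Figure D2:**
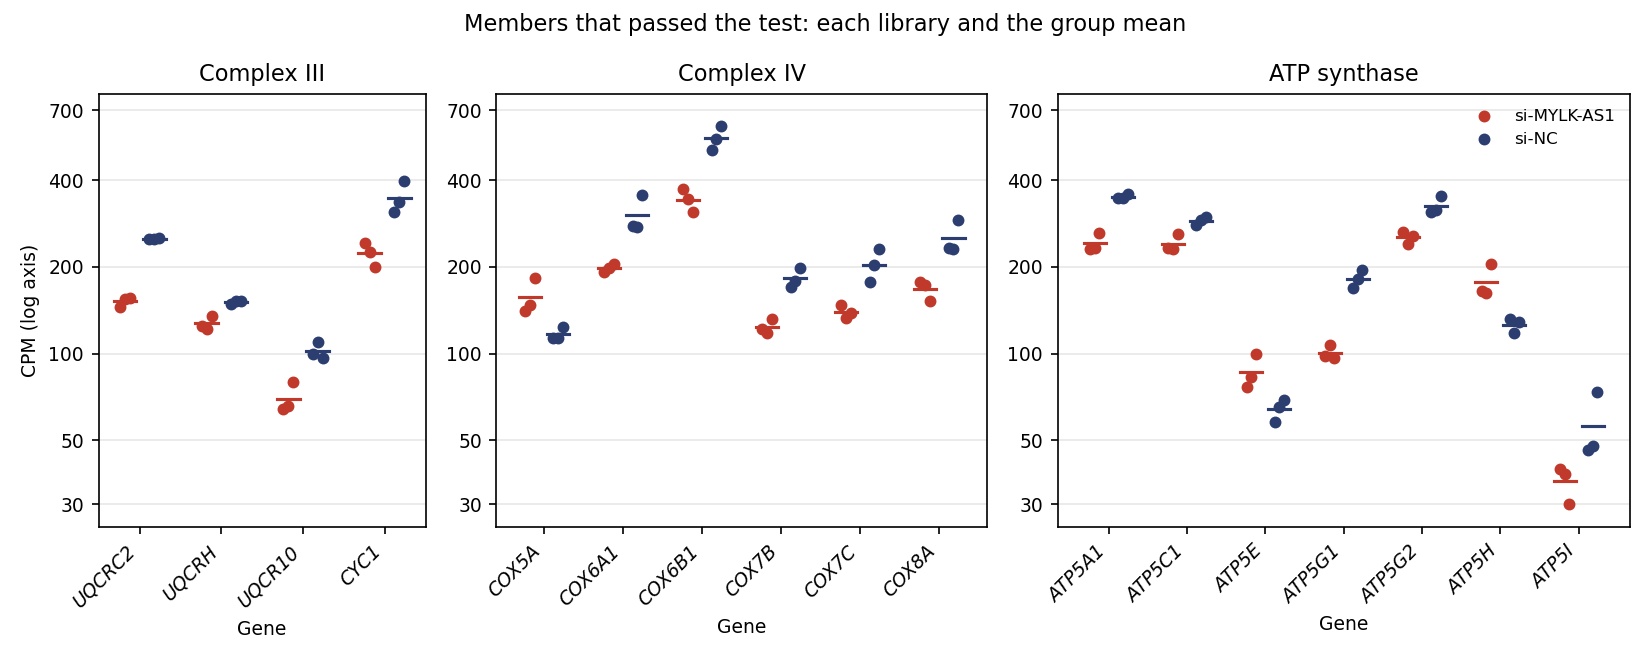
CPM of the 17 genes that passed the test (y axis, log scale) in each library, as points, with a bar at each group mean, si-MYLK-AS1 left of si-NC. The groups do not overlap in any of the 17, with UQCRH and ATP5C1 among the closest pairs and UQCRC2 and ATP5G1 the widest.

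In the ATP synthase, 5 of 15 genes fell (33.3%, against 20.7% of all tested genes) and 2 rose (13.3%, against 21.3%). The median log2 fold change was -0.15. The catalytic head holds alternating alpha and beta subunits around the central stalk. ATP5B, the catalytic beta subunit, had 858, 887 and 960 CPM in the knockdown, against 1002, 969 and 953 CPM in the control, with overlapping groups (log2 fold change -0.11, SE 0.09, adjusted p = 0.319). ATP5A1, the alpha subunit beside it, had 231, 232 and 262 CPM in the knockdown, against 347, 346 and 357 CPM in the control. Its groups were far apart, and ATP5A1 was at 69.1% of the control (log2 fold change -0.53, SE 0.09, adjusted p = 0.000108).

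The central stalk genes differed among themselves. ATP5C1, the gamma subunit that turns inside the head, had 232, 231 and 259 CPM in the knockdown, against 280.1, 290.0 and 298 CPM in the control, a small fall (log2 fold change -0.27, SE 0.09, adjusted p = 0.0216). The call of ATP5C1 was lost when knockdown replicate 1 (adjusted p = 0.0802), knockdown replicate 2 (0.104) or control replicate 2 (0.0693) was left out. ATP5E, the epsilon subunit, had 76.5, 83.2 and 99.5 CPM in the knockdown, against 57.8, 65.3 and 69.1 CPM in the control, and rose (log2 fold change 0.43, SE 0.12, adjusted p = 0.00626). The reads of its pseudogenes came to 21.0% of its own, and with them added the log2 fold change was 0.30 (adjusted p = 0.0419). ATP5D, the delta subunit, had the lowest counts of the 34 and did not pass (log2 fold change 0.11, SE 0.14, adjusted p = 0.580).

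The c subunit of the membrane rotor is coded by ATP5G1, ATP5G2 and ATP5G3, whose precursors differ in the import signal and end in the same mature protein. ATP5G1 (chr17:48892765-48895871, plus strand, GRCh38) had 98.2, 107 and 96.6 CPM in the knockdown, against 169, 182 and 195 CPM in the control. Every knockdown library was well below every control library, and the level of 55.3% of the control was the lowest among the 34 genes (log2 fold change -0.85, SE 0.09, adjusted p = 1.66e-06). ATP5G2 had 265, 240.5 and 256 CPM in the knockdown, against 311, 316 and 352 CPM in the control, and fell less (log2 fold change -0.36, SE 0.09, adjusted p = 0.00348). ATP5G3 had 269, 270.3 and 298 CPM in the knockdown, against 299, 309 and 324 CPM in the control (log2 fold change -0.15, SE 0.09, adjusted p = 0.167). The difference between the genes was not tested. The summed level of the 3 genes was 634 ± 16.8 CPM in the knockdown and 819 ± 47.3 CPM in the control (SD, n = 3 each). ATP5G1 took 15.5%, 17.3% and 14.8% of that sum in knockdown replicates 1 to 3, against 21.7%, 22.5% and 22.4% in control replicates 1 to 3, while ATP5G3 took 42.5%, 43.8% and 45.8% in the knockdown, against 38.4%, 38.3% and 37.2% in the control. These shares use counts not divided by transcript length, so they compare groups and not genes.

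The final 90 coding bases of the c subunit genes are shown because they code the same residues and yet set the genes apart. They were read from GENCODE release 29 transcripts (GRCh38), from chr17:48895680-48895769 on the plus strand for ATP5G1, chr12:53665314-53665403 on the minus strand for ATP5G2 and chr2:175178288-175178377 on the minus strand for ATP5G3. Capitals mark the 25 positions at which the 3 sequences are not all alike.
ATP5G1: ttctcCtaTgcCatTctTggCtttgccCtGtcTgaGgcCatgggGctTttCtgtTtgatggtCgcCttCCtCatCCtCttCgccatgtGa
ATP5G2: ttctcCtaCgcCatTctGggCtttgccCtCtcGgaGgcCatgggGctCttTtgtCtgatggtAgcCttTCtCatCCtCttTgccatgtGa
ATP5G3: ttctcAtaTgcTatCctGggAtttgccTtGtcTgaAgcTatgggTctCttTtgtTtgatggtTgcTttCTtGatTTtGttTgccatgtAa
Over the last 234 coding bases, which code the same residues in all 3, ATP5G1 and ATP5G2 were 88.5% identical, and ATP5G3 was 79.9% identical to each. Reads assigned to pseudogenes came to 6.21% of the reads of ATP5G1 and 7.99% of those of ATP5G2. The pseudogene ATP5G2P4 fell as well (log2 fold change -1.15, SE 0.16, adjusted p = 1.79e-05).

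The peripheral stalk holds the head still against the rotor. Of its 4 genes, 1 rose (25%, close to the 21.3% of all tested genes) and the other 3 did not pass. ATP5H, subunit d (chr17:75038863-75046985, minus strand, GRCh38), had 165, 162 and 204 CPM in the knockdown, against 132, 118 and 129 CPM in the control, and rose to 140.3% of the control with no overlap (log2 fold change 0.49, SE 0.10, adjusted p = 0.00101). Reads assigned to its pseudogenes came to 23.8% of its own, and ATP5HP4, the largest of them, did not pass (log2 fold change 0.09, adjusted p = 0.606). ATP5F1 (subunit b), ATP5J (factor 6) and ATP5O (the oligomycin sensitivity conferral protein) had log2 fold changes of -0.03, 0.15 and -0.15 and did not pass.

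The small membrane subunits e, f and g help ATP synthase dimers form. Of their genes only ATP5I, subunit e, passed, and it fell (33.3%, against 20.7% of all tested genes). It had 39.7, 38.3 and 30.2 CPM in the knockdown, against 46.4, 47.7 and 73.9 CPM in the control (log2 fold change -0.63, SE 0.17, adjusted p = 0.00730). Control replicate 3 stood far above the other control libraries, and without it the log2 fold change of ATP5I was -0.38 (adjusted p = 0.0295). Of the annotated exon bases of ATP5I, 61.6% lie inside exons of MYL5 on the opposite strand. Whether reads were counted by strand is not stated, so reads of ATP5I and MYL5 cannot be told apart. MYL5 itself had 9.96 CPM in the knockdown and 9.54 CPM in the control on average (log2 fold change 0.06, adjusted p = 0.814). ATP5J2 (subunit f) and ATP5L (subunit g) had log2 fold changes of -0.17 and -0.14 and did not pass. The read-through row ATP5J2-PTCD1 rose (log2 fold change 0.43, SE 0.12, adjusted p = 0.00618), and its reads cannot be fully parted from those of ATP5J2.

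The libraries of a group did not move as one. Of the 14 genes that fell, 13 were highest in control replicate 3 among the control libraries, and 5 were lowest in knockdown replicate 3 among the knockdown libraries. COX5A, ATP5E and ATP5H were each highest in knockdown replicate 3. Among the control libraries, COX5A and ATP5E were also highest in control replicate 3, and ATP5H was not, so this trait was not particular to genes that fell. Its share over all tested genes was not counted. The median log2 deviation of the 34 genes from the control mean was -0.22, -0.26 and -0.08 in knockdown replicates 1 to 3, against -0.06, -0.04 and 0.10 in control replicates 1 to 3. Without control replicate 3 the counts were 14 lower and 3 higher, and without knockdown replicate 3 they were also 14 and 3.

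**Figure D3:**
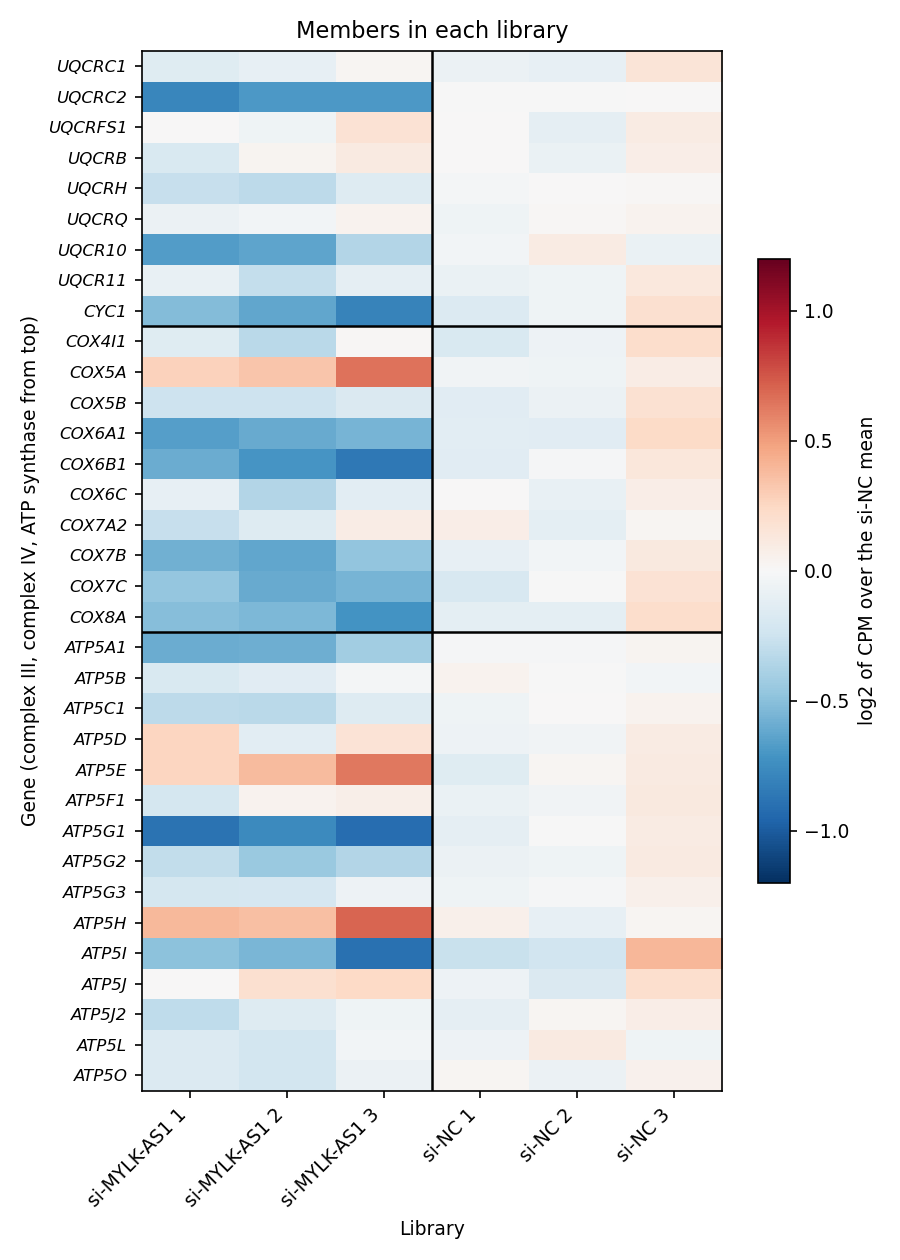
Each cell is the log2 ratio of the CPM of one gene (rows) in one library (columns) to the mean of the control libraries, blue below and red above. The left 3 columns, si-MYLK-AS1, hold the blue rows of the genes that fell and the red rows of COX5A, ATP5E and ATP5H, and the last column, si-NC replicate 3, is pale red in 31 of the 34 rows.

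The promoters of these genes are known to bind nuclear respiratory factor 1 (NRF1) and the ETS family factor GABP, with YY1 and Sp1 at many of them. RefSeq promoters (GRCh38.p14, 250 bases before to 50 after the start) were found for 27 of the 34 genes, and the first entry of each gene was searched on both strands, each motif on its own, so that overlapping matches of different motifs count for each. The ETS core CCGGAAG was present in 12 of the 27 (44.4%), against 10.7% of 27305 promoters and 19.2% of the 9716 promoters whose symbol matched a tested gene. The NRF1 palindrome, GCGC and GCGC with A and any base N between them, was present in 7 (25.9%), against 11.7% of the promoters of tested genes. The YY1 core AAGATGGC was present in 4 (14.8%, against 5.5%), and the Sp1 box GGGCGGG in 8 (29.6%, against 54.6%). The ETS core was found in 5 of 13 genes that fell, 1 of 3 that rose and 6 of 11 that did not pass, and the NRF1 palindrome in 3, 0 and 4 of them. The YY1 matches were all in genes that did not pass, and the Sp1 box was found in 2 of 13 that fell and 3 of 3 that rose, a contrast picked out after its values were seen.

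Matches of the genes that changed are shown to let the promoters be compared, on the strand of the gene, with the match in capitals. For the ETS core they lie at chr1:46303641-46303669 (UQCRH, plus strand), chr12:120438086-120438114 (COX6A1, plus), chr19:35648300-35648328 (COX6B1, plus), chr11:63974591-63974619 (COX8A, plus), chr4:674256-674284 (ATP5I, minus) and chr17:75047053-75047081 (ATP5H, minus), all as the reverse complement CTTCCGG.
UQCRH: agtgtgccgcaCTTCCGGccagatcgccg
COX6A1: ttccacttccgCTTCCGGcgctgcggcag
COX6B1: acctctctcagCTTCCGGctggtagtagt
COX8A: cagctccagaaCTTCCGGccagcgcagcc
ATP5I: tgcaggttgtgCTTCCGGtgcggaggtca
ATP5H: ccgggaagataCTTCCGGaaccagccctc
In UQCRH, COX6A1, COX6B1, COX8A and ATP5I the centre of the match lay within 43 bases of the RefSeq start. In ATP5H, which rose, it lay 98 bases before that start. GENCODE spans can begin elsewhere, as at chr19:35648223 for COX6B1, so these offsets hold for the RefSeq starts only. Genes that did not pass had ETS matches at both kinds of position, 5 bases after the start in COX4I1 and 114 and 94 bases before it in UQCR11. Position was not tested against the change. Matches to the NRF1 palindrome in genes that fell lie at chr22:29767351-29767380 (UQCR10, plus) and chr10:7788145-7788174 (ATP5C1, plus), and ATP5I holds 2 more.
UQCR10: gtcggccccaGCGCAGGCGCggtggcgcga
ATP5C1: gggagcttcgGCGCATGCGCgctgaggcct
A match is a stretch of letters, and binding was not measured.

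In the 3' ends of these mRNAs, the word AGCTTA was searched, a choice made from earlier results of these data that are not shown here. It was present in the longest annotated 3' untranslated region of 4 of the 34 genes (11.8%), against 27.3% of 11616 tested genes with such a region, and these regions were short, with a median of 332 bases against 1335. It was held by 2 of the 14 genes that fell, 0 of the 3 that rose and 2 of the 17 that did not pass, COX4I1 and UQCRB. The word came from the same libraries as the calls, so this split is no independent test of it. The sites of the 2 genes that fell, COX7C (chr5:86620375-86620404, plus strand) and ATP5C1 (chr10:7807684-7807713, plus strand), are shown with the word in capitals.
COX7C: gataaaatatttAGCTTAattgtcatcaga
ATP5C1: gattttgtttttAGCTTActgctgcctttg

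Beside the nuclear subunits, the mitochondrially coded subunits of the same complexes also went both ways. Of 6 genes, 3 were lower (50%, against 20.7% of all tested genes) and 1 was higher (16.7%, against 21.3%). COX1, the catalytic subunit of complex IV, had 16180, 15699 and 15153 CPM in the knockdown, against 21487, 22193 and 18715 CPM in the control (log2 fold change -0.41, SE 0.10, adjusted p = 0.00230). COX2, which takes electrons from cytochrome c, fell by 0.36 on the log2 scale (SE 0.09, adjusted p = 0.00485), while COX3 did not pass (log2 fold change -0.01, adjusted p = 0.947). ATP6 fell (-0.24, SE 0.09, adjusted p = 0.0334) and ATP8 rose (0.35, SE 0.11, adjusted p = 0.0137). The call of ATP8 was lost without knockdown replicate 2 (adjusted p = 0.112) or control replicate 1 (0.0785). The call of ATP6 held without control replicate 3 but not without any other single library (adjusted p 0.0536 to 0.133). ATP6 and ATP8 overlap on 1 transcript, so how their reads were shared out bears on both values. CYTB, the catalytic subunit of complex III, did not pass (0.17, adjusted p = 0.181).

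Isoforms and partners of complex IV included larger changes than its subunits. COX7A2L, which joins complexes III and IV into supercomplexes, had 70.95, 64.5 and 82.2 CPM in the knockdown, against 155, 147 and 142 CPM in the control, and was at 48.9% of the control (log2 fold change -1.03, SE 0.10, adjusted p = 5.93e-07). COX6B2, the testis isoform of COX6B1, had 2.01, 1.36 and 0.410 CPM in the knockdown, against 6.23, 6.84 and 7.51 CPM in the control (-2.35, SE 0.34, adjusted p = 3.06e-05). NDUFA4, a complex IV subunit once assigned to complex I, fell (-0.39, SE 0.09, adjusted p = 0.00167), and CYCS, cytochrome c itself, rose (0.38, SE 0.12, adjusted p = 0.0190), a call lost without knockdown replicate 3 (adjusted p = 0.112) or control replicate 1 (0.0597). HIGD1A and HIGD2A did not pass. The muscle and other tissue isoforms COX4I2, COX6A2, COX7A1, COX7B2 and COX8C did not pass the filter on low counts.

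Of 25 tested assembly factors of complex IV, 6 were lower (24%) and 5 higher (20%), close to the shares of all tested genes (20.7% and 21.3%), and the median log2 fold change was 0.07. COX20, which steadies newly made COX2 protein, had 51.0, 58.2 and 57.7 CPM in the knockdown, against 21.6, 22.5 and 19.95 CPM in the control, and rose to 261% of the control (log2 fold change 1.38, SE 0.12, adjusted p = 1.34e-07). COX11, which helps place copper in the catalytic subunit, had 22.9, 24.2 and 25.5 CPM in the knockdown, against 60.7, 56.9 and 53.1 CPM in the control (-1.23, SE 0.12, adjusted p = 3.88e-07). CEP89 (-0.85, SE 0.12, adjusted p = 2.61e-05) and COX14 (-0.72, SE 0.12, adjusted p = 8.01e-05) fell as well. Of 6 complex III assembly factors, 1 rose (16.7%) and 2 fell (33.3%). LYRM7, a chaperone of the Rieske protein, rose (1.00, SE 0.19, adjusted p = 0.000512), and UQCC1 and UQCC2 fell (-0.48 and -0.65). Of the 5 ATP synthase assembly genes, 0 passed edgeR's quasi-likelihood test, 0 passed with DESeq2 and 1, ATPAF1, had an unadjusted p under 0.05 (log2 fold change 0.30, adjusted p = 0.0807). Of the proteins that attach to the ATP synthase, C14orf2 fell (-0.47, SE 0.10, adjusted p = 0.000973), while the inhibitor gene ATPIF1 (-0.18) did not pass.

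**Figure D4:**
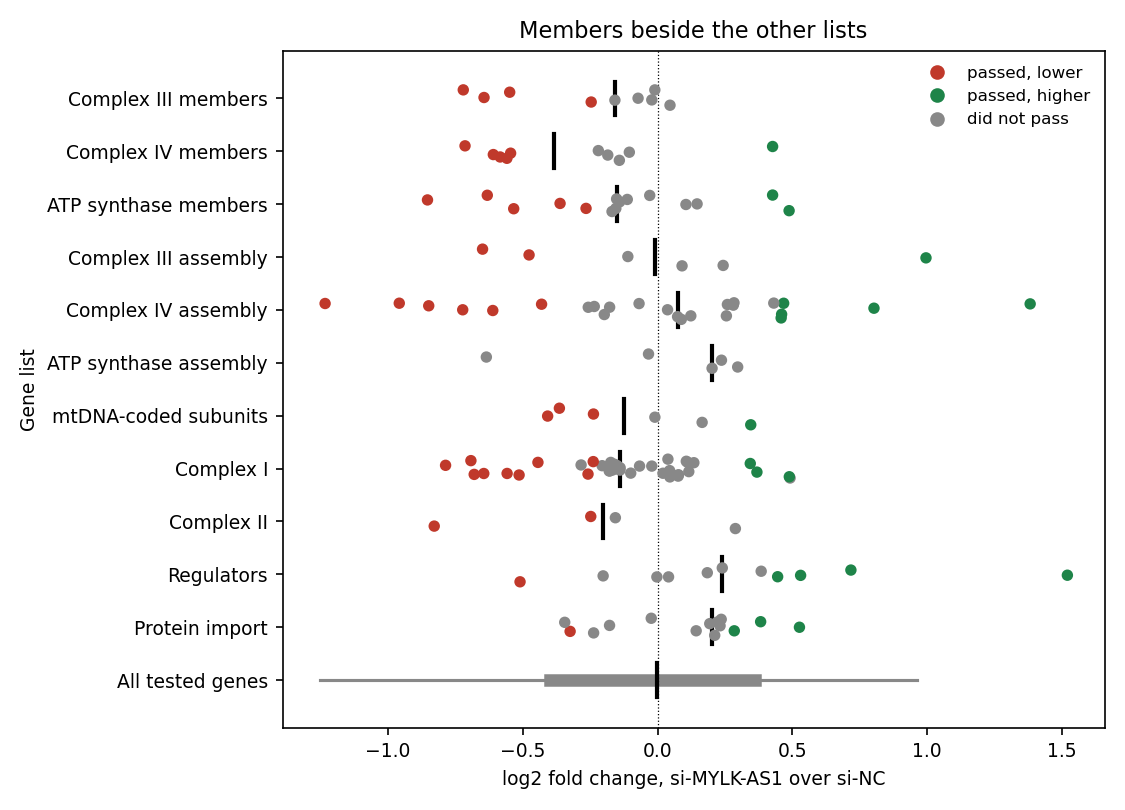
The log2 fold change of each tested gene (x axis, knockdown over control) is shown by list, coloured by the outcome of the test, with a bar at each median. The grey line for all tested genes covers the middle 90% and the thick part the middle 50%. Complex IV has the lowest median of the lists shown (-0.38), and regulators the highest (0.24).

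Complexes I and II pass electrons to ubiquinone, upstream of complex III. Of 36 tested complex I genes, 9 fell (25%, against 20.7% of all tested genes) and 3 rose (8.33%, against 21.3%). Their median log2 fold change was -0.14, or -0.04 without control replicate 3. The lowest p-values among them were those of NDUFA1 (-0.79, SE 0.11), NDUFA2 (-0.69, SE 0.10), NDUFV1 (-0.64, SE 0.11) and NDUFS7 (-0.68, SE 0.14). In complex II, SDHA (-0.83, SE 0.09) and SDHB (-0.25, SE 0.09) fell, 2 of 4 genes (50%, against 20.7% of all tested genes). The call of SDHB (adjusted p = 0.0391) was lost without knockdown replicate 1 (0.110), knockdown replicate 2 (0.155), control replicate 1 (0.1) or control replicate 2 (0.110), and with no filter on low counts (0.0819). The difference between complexes was not tested. Of 11 tested regulators of mitochondrial genes, 4 rose (36.4%, against 21.3% of all tested genes) and 1 fell (9.09%, against 20.7%). GABPB1, the partner subunit of GABP, had 34.2, 42.0 and 47.5 CPM in the knockdown, against 14.9, 14.8 and 13.3 CPM in the control (log2 fold change 1.52, SE 0.15, adjusted p = 3.54e-07). GABPA, the other subunit gene of GABP, had 1.82 CPM in the knockdown and 1.37 CPM in the control on average, with overlapping groups. At that low level GABPA did not pass (log2 fold change 0.38, SE 0.37, adjusted p = 0.427). TFAM, which packs mitochondrial DNA and helps start its transcription, rose (0.72, SE 0.12, adjusted p = 0.000179). The coactivator gene PPRC1 also rose (0.45, SE 0.10, adjusted p = 0.00183). The matrix protease gene LONP1 fell (-0.51, SE 0.11, adjusted p = 0.000838). NRF1 itself did not pass (log2 fold change -0.20, SE 0.14, adjusted p = 0.279). Of 14 genes of mitochondrial protein import, 3 rose (21.4%, against 21.3% of all tested genes) and 1 fell (7.14%, against 20.7%). The import motor chaperone HSPA9 was among those that rose (0.53, SE 0.10, adjusted p = 0.000265), and TOMM22 fell (-0.32, SE 0.11, adjusted p = 0.0238). The call of TOMM22 was lost without knockdown replicate 2 (adjusted p = 0.105), control replicate 2 (0.0783) or control replicate 3 (0.0556).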

How the data were processed

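RNA of 6 PC9/GR samples was sequenced, 3 of si-MYLK-AS1 and 3 of si-NC. Trizol extraction and an Ion Proton RNA-Seq kit are named by the labels' protocols. The authors deposited raw counts per gene symbol, with GRCh38 named as the genome build in the submitters' processing notes. Which aligner, annotation and counting program were used, and whether reads were counted by strand, is not given in the sources used here.

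From these counts, edgeR 4.0.16 (R 4.3.3) was run on the whole table with filterByExpr, TMM factors and a robust quasi-likelihood fit without a block. The 2-sided F test was adjusted by Benjamini-Hochberg over 15391 genes, with a threshold of 0.05. The SE is the log2 fold change over the square root of F, an approximation. The test was also run on counts simulated from its own model with independent libraries, which does not show how it performs on these libraries. The members, the companion lists and the tests were chosen with earlier results of these data known. All members that passed are given by library, with the 2 highest in CPM per complex, and each companion list names up to 4 genes that passed with the lowest p, except that the mitochondrially coded genes, isoforms and other ATP synthase proteins may all be named. NRF1, GABPA and ATPAF1 are named outside that rule. Pseudogene rows were matched by symbol. Positions and transcripts came from GENCODE release 29, promoters from RefSeq. No group's libraries agreed within sampling noise (chi-square per degree of freedom of 2.37 or more). Counting floors cover counting error only.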

Additional observations from a re-analysis of the deposited data

How the results depend on the processing

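Of the 34 genes, 14 were lower and 3 higher. Under DESeq2 1.42.0, limma-voom (limma 3.58.1), RLE, upper quartile or no factors, a looser or stricter filter (any gene with reads, or 5 CPM in at least 3 libraries), thresholds of 0.01 and 0.1, and with pseudogene and read-through rows added, the number lower ranged from 12 to 15 and the number higher was 3. Leaving out each library in turn gave 12 to 14 lower and 3 higher. The median log2 fold change ranged from -0.21 to -0.12. No member's log2 fold change changed sign while passing the test in these runs. Besides UQCRH and ATP5C1, whose lost calls are given with their values above, no called member lost its call at the 0.05 threshold. COX5B passed with upper quartile factors, no factors, the stricter filter and without control replicate 1 (lowest adjusted p 0.0368). Upper quartile and no factors moved the median of all genes by -0.03 on the log2 scale.

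With the replicate number as a block, 14 members were lower and 3 higher, the 17 calls being the same. Deviations of same-numbered libraries correlated at -0.05, 0.08 and 0.06, and the block changed no member's call. Values centred within so few libraries cannot show whether same-numbered libraries were prepared together. At these depths the SEs of the members were 0.09 to 0.17 on the log2 scale, and the smallest change that passed was -0.25.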

Other observations

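A few genes of the companion lists had almost no reads in these libraries and entered no test. COX17, a copper carrier of complex IV assembly, had 1, 1 and 1 reads in knockdown replicates 1 to 3, against 0, 0 and 0 in control replicates 1 to 3. COX15, which makes heme a for complex IV, had 4, 8 and 7 reads in the knockdown, against 3, 3 and 6 in the control. NDUFA10, a complex I subunit, had 2, 0 and 2 reads in the knockdown, against 0, 3 and 3 in the control. The coactivator gene PPARGC1A had 2, 6 and 2 reads in the knockdown, against 3, 3 and 1 in the control. Whether the naming of genes in the deposited table placed their reads under other rows could not be settled, so these counts are not a measure of expression. They were picked out for their low counts after the values were seen.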
